A study of Mus musculus with 8 samples.

Results

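The genes for the receptors of interleukin 23, interleukin 12 and interleukin 6 were examined by ATAC-seq, a method in which the Tn5 transposase cuts accessible DNA and so marks open chromatin, in cultured group 2 innate lymphoid cells (ILC2s). The 5 genes were Il23r, Il12rb2, Il12rb1, Il6ra and Il6st. A peak belonged to them when its summit lay inside 1 of these gene bodies or within 50 kb of it, in mouse build mm10. This gave 123 of 131575 peak lines in E47-ER cells at 4 h, 111 of 109772 in E47-ER cells at 16 h, 93 of 112023 in GFP cells at 4 h and 112 of 134423 in GFP cells at 16 h. Merged and linked across the lists, they formed 64 of 60835 regions.

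The ILC2s came from the thymus of C57BL/6 mice with the plck-Id1 transgene, and the labels give no age. Id1 binds E proteins and keeps them from DNA, and plck is the usual name of the proximal Lck promoter, which is active in developing T cells. In every group the cells were grown with IL-33, IL-25 and IL-7, infected with a retrovirus, sorted by their GFP, expanded and treated with 4-hydroxytamoxifen for 4 or 16 h. The E47 groups received E47-ER, a tamoxifen-responsive fusion of the E protein E47, together with GFP, and the control groups received GFP alone. All groups thus carried Id1, the virus and the drug. The 8 samples formed 4 groups of 2, and the authors made 1 peak list from the 2 samples of each group. The labels do not say whether samples of a group were separate cultures or animals. In every group, the free-text descriptions give replicate 1 the empty vector and replicate 2 the one with E47-ER. This goes against the titles and transduction labels, on which each difference given here depends.

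No spread between replicates can be measured from 1 list per group, so no test between groups was possible, and the values describe these 4 lists. Read depth is not given in the sources used here. The lists held 49811 (E47-ER 4 h), 40649 (E47-ER 16 h), 42665 (GFP 4 h) and 52846 (GFP 16 h) merged regions, and a longer list has more regions of its own. Fold enrichment is the authors' value of a peak over its local background, given as the highest of a region's peaks, and can be ranked only within 1 list. Folds of different lists, their order and their ratios are set side by side as a description only. Percentile is the rank of a region's −log10 p in its list, with 100 the strongest. Chromatin with no call in a list may still have been open, below the threshold of the caller. All 10 ILC2 marker genes examined, Gata3 and Il1rl1 among them, had a region in or within 1 kb of the gene in every list. So did 4 or 5 of 10 T cell genes, depending on the list. The windows of Cd8a and Cd8b1 held no region in any list, whereas that of Cd4 held 12 and that of Rag1 10. Of 5 markers of group 3 innate lymphoid cells (ILC3s), 1 had a region in or within 1 kb of the gene in each list. In each list, 3 of 5 B cell, 3 of 5 myeloid and 4 of 5 stroma and epithelium genes had one too. For ILC1 and NK cell genes it was 2 or 3 of 5. A region at a marker gene therefore does not identify a cell type by itself. The part of other cell types in the results was not tested.

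These receptors are built from shared chains. The IL-12 receptor joins IL-12Rβ1 (Il12rb1) to IL-12Rβ2 (Il12rb2), and the IL-23 receptor joins the same IL-12Rβ1 to IL-23R (Il23r). IL-6 binds IL-6Rα (Il6ra), which then pairs with gp130 (Il6st), the signalling chain that several related cytokines share. IL-12 signals mainly through STAT4 and promotes interferon γ, whereas IL-23 and IL-6 signal mainly through STAT3 and are known for their role in type 17 lymphocytes and ILC3s. E proteins bind the E-box, CANNTG.

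Promoter sequences show which starts carried a called region and which E-boxes lay in them. The 250 bases before the annotated start are given 5′ to 3′ on the gene's strand, from RefSeq (GRCm38.p6, the assembly of mm10), with CANNTG in capitals. Of the 5 genes, 4 were in the promoter table. Il12rb2 is shown for a start called with E47-ER and not with GFP, Il6ra and Il6st for starts called in all lists, and Il23r for a start called in none. Il12rb1 had no entry.
Il12rb2 (chr6:67376189-67376438, minus strand): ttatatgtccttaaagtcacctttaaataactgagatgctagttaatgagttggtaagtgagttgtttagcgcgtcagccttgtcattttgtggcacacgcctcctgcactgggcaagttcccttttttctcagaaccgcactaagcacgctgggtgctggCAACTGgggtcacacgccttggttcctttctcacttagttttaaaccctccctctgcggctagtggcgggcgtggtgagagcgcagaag
Il23r (chr6:67491856-67492105, minus strand): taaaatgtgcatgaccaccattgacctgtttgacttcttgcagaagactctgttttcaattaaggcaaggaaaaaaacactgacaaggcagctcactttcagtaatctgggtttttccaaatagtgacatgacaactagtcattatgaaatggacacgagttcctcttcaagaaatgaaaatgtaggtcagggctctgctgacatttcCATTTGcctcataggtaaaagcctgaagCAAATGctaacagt
Il6ra (chr3:89913197-89913446, minus strand): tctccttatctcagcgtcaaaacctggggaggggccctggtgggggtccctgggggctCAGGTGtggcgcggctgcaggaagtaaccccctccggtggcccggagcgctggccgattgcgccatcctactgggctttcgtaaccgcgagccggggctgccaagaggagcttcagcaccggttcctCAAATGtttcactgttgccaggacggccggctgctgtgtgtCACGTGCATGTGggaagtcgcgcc
Il6st (chr13:112463820-112464069, plus strand): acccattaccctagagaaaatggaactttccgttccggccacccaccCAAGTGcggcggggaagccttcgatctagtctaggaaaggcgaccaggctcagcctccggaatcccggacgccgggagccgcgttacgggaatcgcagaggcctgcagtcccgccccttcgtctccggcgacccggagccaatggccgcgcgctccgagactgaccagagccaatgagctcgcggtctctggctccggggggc

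The Il12rb2 bases held 1 E-box, CAACTG, 89 bp before the start and inside the region called in E47-ER cells, which covered 217 of the 250 bases. The Il6ra bases held 4 E-boxes, among them CAGGTG at 192 bp and CACGTG at 24 bp, and all lay in a region called in every list. The Il6st bases held 1, CAAGTG, and the Il23r bases held 2, CATTTG and CAAATG. E-boxes are common, so these matches set the genes little apart. CANNTG, which reads the same on both strands, was found in 62.7% of 17492 protein-coding promoters of this length, and 4 or more in 2.96%. CAGGTG, a form of the E-box that E47 binds well, was found on either strand in 16.5%, and of the 4 genes only in Il6ra. Another such form, CAGCTG, was present in 11.6% of promoters and in none of these 4. The letters TTCNNNGAA, the core of many STAT sites, were found in 6.69% of promoters and, of the 4, in Il12rb2 as TTCTCAGAA 123 bp before the start. CAGCTG and CAGGTG are special cases of CANNTG, and a match says nothing of binding.

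Whether activated E47 was accompanied by other accessibility at these genes was asked region by region. Il12rb2 and Il23r, the chains specific to IL-12 and IL-23, lie side by side on chromosome 6 (67285986 to 67376293 and 67422932 to 67491855), both on the minus strand. Their joint window of 305.9 kb held 14 regions, of which 3 were called in both E47-ER lists and neither GFP list, none in both GFP lists and neither E47-ER list, and 4 in all lists. Over all regions, 3.43% were called with E47-ER and not GFP at both times and 4.56% with GFP and not E47-ER. At the other 3 genes together, 1 region was of the first kind and 3 of the second.

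The first E47-ER region was at the Il12rb2 start. It spanned 669 bp (chr6:67375737-67376405), with its summit 88 bp upstream of the annotated start. The gene body used here reaches 67376293, past that start at 67376188, so the summit also counts as inside the body. Its fold enrichment was 5.66 in E47-ER cells at 4 h and 5.94 at 16 h, and it was in neither GFP list. The call was weak, at percentile 4.76 and 4.64 of the E47-ER lists. With all lists shortened to the length of the shortest, the region was called in E47-ER cells at 16 h only, and with a stricter score of 830 in no list. The 300 bp around the annotated start were overlapped in this way, in both E47-ER lists and neither GFP list, at 48 of 17492 protein-coding genes (0.274%). Starts overlapped in all 4 lists made up 48.8%, and starts overlapped in none 46.4%. The Il23r start belonged to the last kind, since no list held a region over it.

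The second lay inside the Il23r gene body (chr6:67431742-67432092), 351 bp wide, with folds of 8.25 at 4 h and 7.92 at 16 h in E47-ER cells. Its percentiles were 28.2 and 22.7. By gene body it belongs to Il23r, but its summit was 60.0 kb downstream of the Il23r start and 55689 bp upstream of the Il12rb2 start, so the nearest annotated start was that of the neighbour. The call held at equal list length, whereas at a score of 830 it remained only in E47-ER cells at 4 h. The third was 41492 bp upstream of the Il23r start. Its folds were 6.97 and 7.03, at percentiles 36.6 and 32.6, and it was called in both E47-ER lists only at equal list length and at a score of 830 as well.

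The Il23r window alone held all 3 of these among its 6 regions. They include the region at the Il12rb2 start and the third, whose nearest gene body was another gene's. Windows of 50 kb with 3 or more regions called with E47-ER and not GFP at both times were found for 140 of 21887 protein-coding genes (0.64%), and windows with at least 1 for 16.2%. The limit of 3 was chosen after the values were seen, and neighbouring genes share regions. At marker genes of ILC3s, 5 of 22 regions in the windows of the 5 genes (22.7%) were called in both E47-ER lists alone. In both GFP lists alone, 1 (4.55%) was called, and the shares of all regions were 3.43% and 4.56%. The E47-ER regions lay at 4 of the 5 genes, with 3 at Il17f, 2 at Il17a and 1 each at Il22 and Ccr6, and none at Ncr1, whose window held no region. Most of these E47-ER regions lay at the neighbours Il17a and Il17f, which share regions, and the GFP region lay at Il22. The part of such cells in the result was not tested.

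Between both genes lay a region (chr6:67414990-67415803) that, outside the Serbp1 start, was the strongest of the locus in both E47-ER lists but in the GFP lists not by percentile, nor at 16 h by fold. It was 7478 bp from the Il23r body and 39266 bp upstream of the Il12rb2 start. It was called in all 4 lists, with folds of 23.5 in E47-ER cells and 14.99 in GFP cells at 4 h, and 19.3 and 16.0 at 16 h. E47-ER was thus above GFP at both times, 1.57 times at 4 h and 1.21 times at 16 h. Its percentiles had the same order, at 76.4 and 62.3 at 4 h and 69.6 and 63.3 at 16 h. No replicate error is available for these ratios. Among 29667 regions in all lists, 4.14% reached a ratio of 1.5 at 4 h and 0.927% did at 16 h.

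Inside Il12rb2 the order was turned. The region at chr6:67291709-67292681 had folds of 11.7 and 12.6 in E47-ER cells and of 12.9 and 16.8 in GFP cells, at 4 h and 16 h. The one at chr6:67301899-67302348 had 10.9 and 10.6 against 12.03 and 14.5. Both were in the distal part of the gene, away from its start, and had their highest fold in GFP cells at 16 h. Percentiles were also higher with GFP, at 61.3 and 62.1 against 70.4 and 83.8 for the first. For the second they were 51.4 and 44.9 against 60.6 and 72.9. Of all regions in every list, 22.5% had a ratio of E47-ER to GFP below 1 at both times. The Il12rb2 body held 4 more regions besides these: the start region, and 3 that were called in 1 list or in E47-ER at 4 h and GFP at 16 h only, a combination of 4.57% of all regions. As a reference in the same window, the start of Serbp1, which encodes an mRNA-binding protein, had folds between 21.3 and 23.8 in the 4 lists.

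**Figure D1:**
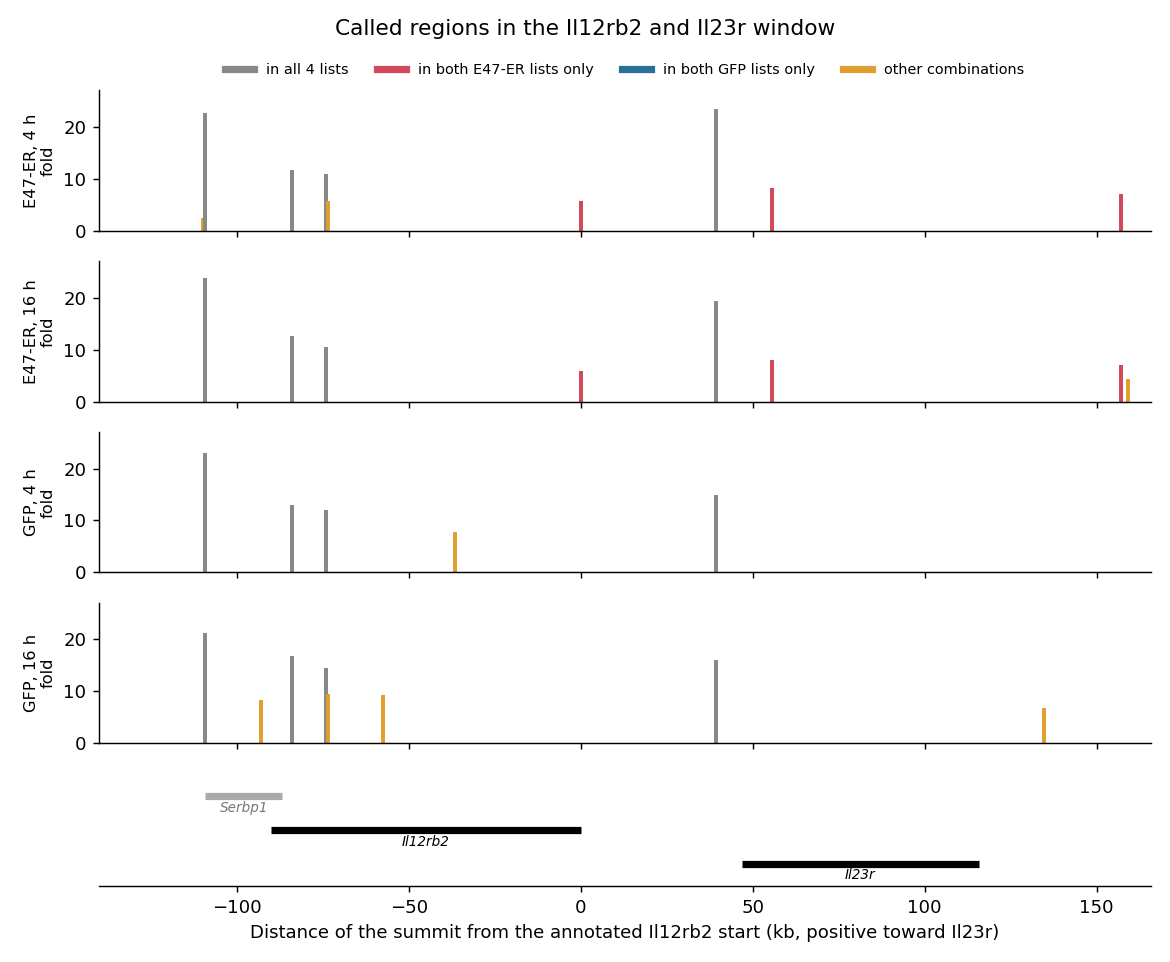
Fold enrichment (vertical axis) of each called region in the Il12rb2 and Il23r window, 1 panel per peak list, against the distance of its summit from the annotated Il12rb2 start in kb; gene bodies are drawn at the bottom. Red bars at the Il12rb2 start, inside Il23r and upstream of Il23r are present in the E47-ER panels only, and the grey bar between both genes is higher in E47-ER (23.5 and 19.3) than in GFP (14.99 and 16.0).

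Il12rb1, the chain that both receptors share, lies on chromosome 8 (70808360 to 70823542) among 8 other protein-coding genes, and its window held 30 regions, or 26.0 per 100 kb against 4.58 per 100 kb at Il12rb2 and Il23r. Of the 30, 17 were in all lists, none in both E47-ER lists alone and 2 in both GFP lists alone. With 3.43% and 4.56% of all regions of these kinds, such counts are near the background and set the gene apart in neither direction. Most of the window belongs to its neighbours: Il12rb1 was the nearest gene for 6 of the 30.

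The gene itself carried 5 regions, all of low fold. The one called in all lists (chr8:70811210-70811584) had folds of 6.03 and 5.64 in E47-ER cells and 6.55 and 4.89 in GFP cells. Beside it, a region (chr8:70810695-70810918) was in both GFP lists alone, with folds of 3.21 and 3.63 at percentiles 7.35 and 21.4. The other 3 were called in a single list each, 2 of them in GFP at 16 h, the longest list. Of these 2, the one at chr8:70808314-70808502 spanned the lower-coordinate end of the gene, with a fold of 2.50 at percentile 1.83. Outside the gene, a region 1598 bp from its lower-coordinate end (chr8:70806574-70806944) was in all lists, with folds of 5.23 and 5.25 in E47-ER and 4.03 and 4.54 in GFP cells. Its ratio of E47-ER to GFP, 1.30 at 4 h and 1.16 at 16 h, was above 1 at both times and below 1.5. The second region of both GFP lists (chr8:70760313-70760600) lay in Mpv17l2, with folds of 3.65 and 3.60. It joined a region called in all lists when peaks within 200 bp were merged.

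Il6ra, which encodes the IL-6-binding chain, lies on chromosome 3 (89869324 to 89913196, minus strand). Its window held 12 regions, 6 of them in all lists and none called by vector at both times. The start was open in every list: the region at chr3:89912748-89913574 had folds of 11.7 and 11.9 in E47-ER cells and 13.6 and 14.1 in GFP cells, so GFP was higher at both times by less than 1.5 times.

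The gene's distal part differed more. A region 42.0 kb downstream of the start (chr3:89870621-89871761) had folds of 8.60 in E47-ER cells at 4 h, 7.77 in E47-ER cells at 16 h and 4.94 in GFP cells at 4 h, and was not called in GFP cells at 16 h. Its percentiles were 66.6, 60.1 and 10.01. By percentile, though not by fold, it was the strongest region of the 5 genes to be missing from a GFP list and called in both E47-ER lists. The list it was missing from was the longest. Limited to regions above the median of their list, or to a score of 830, it became a region of both E47-ER lists alone. The pattern of being missing from GFP at 16 h only was found in 1.44% of all regions and in 2 of these 64, the other being at Il6st. The next region, at chr3:89872177-89872733, was in all lists with folds of 8.88 and 10.2 against 9.32 and 12.2. By fold, adjacent regions in the distal part of Il6ra therefore had opposite orders of E47-ER and GFP. By percentile they did not, since the second stood at 68.3 and 71.9 in E47-ER cells against 54.6 and 69.0 in GFP cells. Another 2 regions inside the gene and 1 in Atp8b2, which encodes a lipid-flipping ATPase, were called in GFP at 16 h alone.

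Il6st, the gp130 gene, lies on chromosome 13 (112464070 to 112506860, plus strand), and its window held 8 regions, none with its strongest summit inside the gene body. Its start (chr13:112463533-112464661) had the highest folds of the window, 23.6 and 21.7 in E47-ER cells and 23.1 and 24.1 in GFP cells, at percentiles between 94.1 and 98.1. The ratio of E47-ER to GFP was 1.02 at 4 h and 0.900 at 16 h. Both ratios lay near the medians over all regions in every list, 1.07 at 4 h and 0.940 at 16 h, which also fell between the times. Whether the change at this start went beyond that of the lists was not tested.

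The regions around it were divided. One 1015 bp past the distal end of the gene (chr13:112507637-112508017) was called in both E47-ER lists alone, with folds of 6.80 and 5.73. It was weak, at percentiles 14.9 and 3.07, and was called at 16 h only when the lists were made equal in length and in no list at a score of 830. A region inside the neighbour Il31ra (chr13:112551383-112551948), which encodes a receptor chain for IL-31, was in both GFP lists alone, with folds of 8.24 and 8.53. Upstream, the region 24456 bp before the start had folds of 9.27 in E47-ER at 4 h, 6.20 in E47-ER at 16 h and 5.54 in GFP at 4 h, and was missing from GFP at 16 h. The region 5309 bp before the start had the reverse order, with folds of 7.37 and 7.01 in E47-ER cells and 9.61 and 10.4 in GFP cells. Regions of both orders thus stood upstream of the same start.

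**Figure D2:**
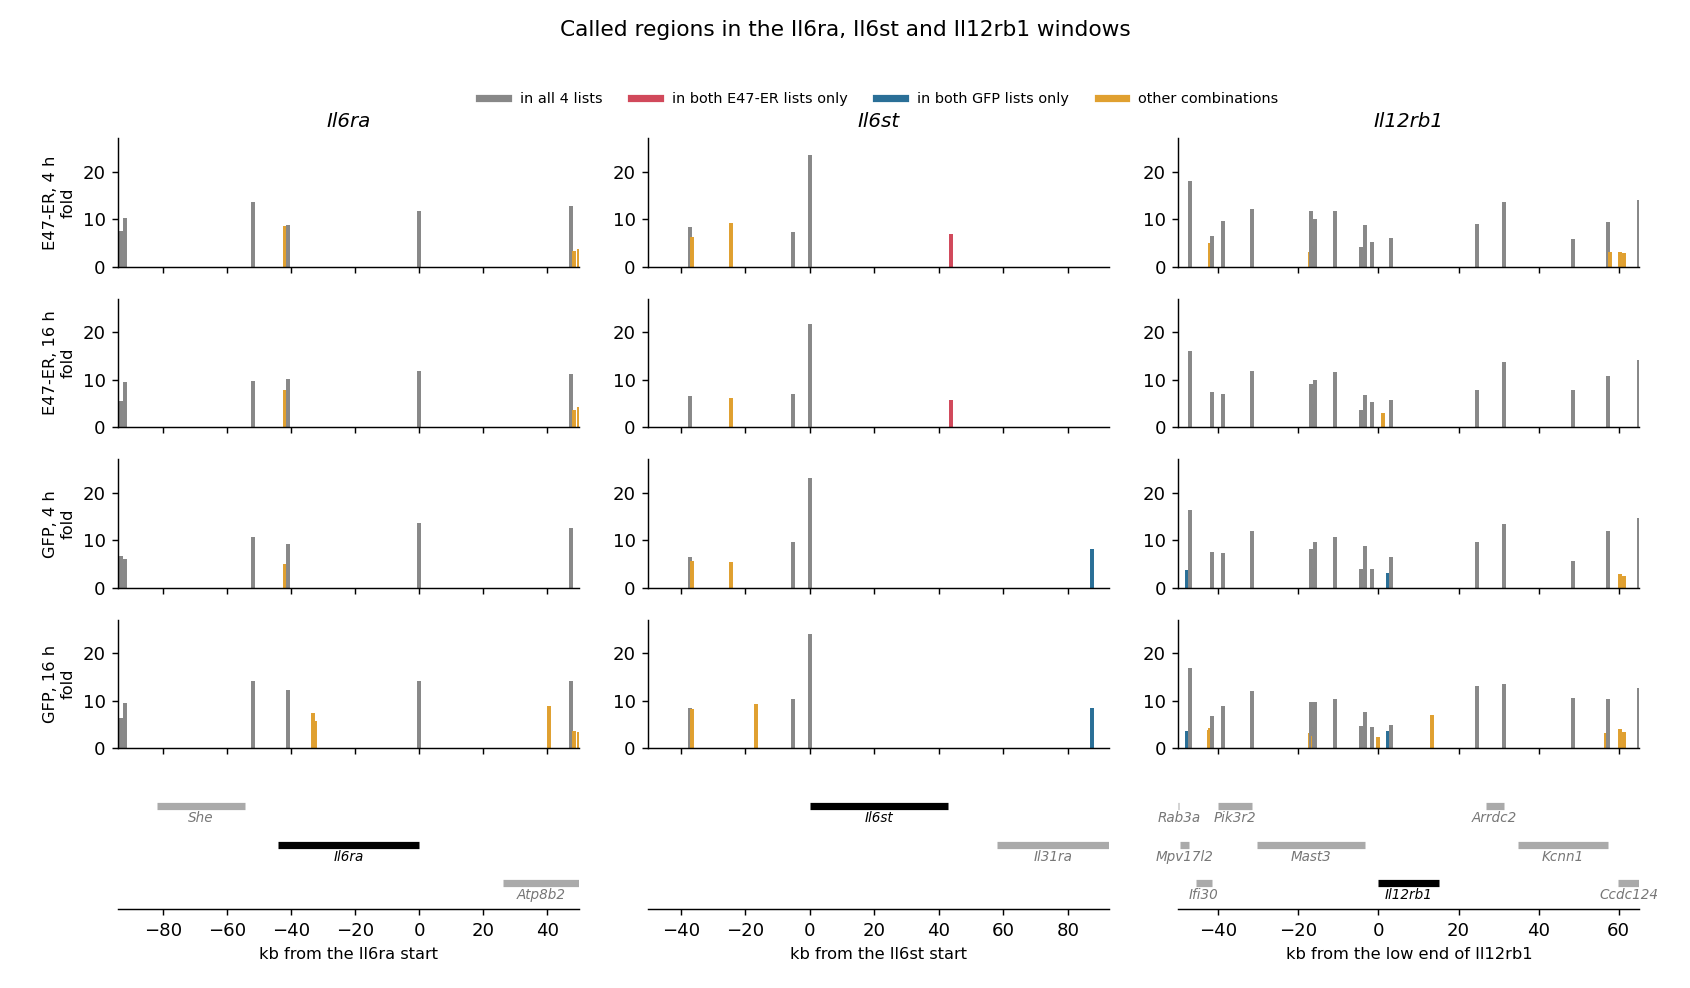
Fold enrichment (vertical axis) of each called region in the Il6ra, Il6st and Il12rb1 windows, 1 row per peak list, against the distance of its summit in kb from the annotated start (Il6ra, Il6st) or the lower-coordinate end of the gene (Il12rb1); distances grow with the mm10 coordinate. Grey bars at the starts of Il6ra (11.7 to 14.1) and Il6st (21.7 to 24.1) are present in every row, and the only red bar is the weak region past Il6st.

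Fold enrichments of the 30 regions called in every list were close to those of the rest of the genome. The median ratio of E47-ER to GFP was 1.02 at 4 h, against 1.07 over all 29667 such regions, and 0.914 at 16 h, against 0.940. At 4 h, 18 of the 30 had a ratio above 1, and at 16 h 12 had. The ratio was above 1 at both times for 7 regions and below 1 at both times for 7, which compares with 27.4% and 22.5% of all such regions. None of the 30 reached a ratio of 1.5, or of its inverse, at both times, as 0.492% and 0.421% of all did. At a single time, 3 passed: the region between Il12rb2 and Il23r, one 9908 bp upstream of the start of She, an adaptor gene near Il6ra (chr3:89821107-89821595, folds of 10.3 and 5.96 at 4 h and 9.61 and 9.48 at 16 h), and one near Arrdc2 in the Il12rb1 window (chr8:70832915-70833837). The last had folds of 7.77 in E47-ER and 13.04 in GFP cells at 16 h, where 8.31% of all regions in every list reached the inverse ratio, and 8.97 and 9.69 at 4 h, where 0.63% did.

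**Figure D3:**
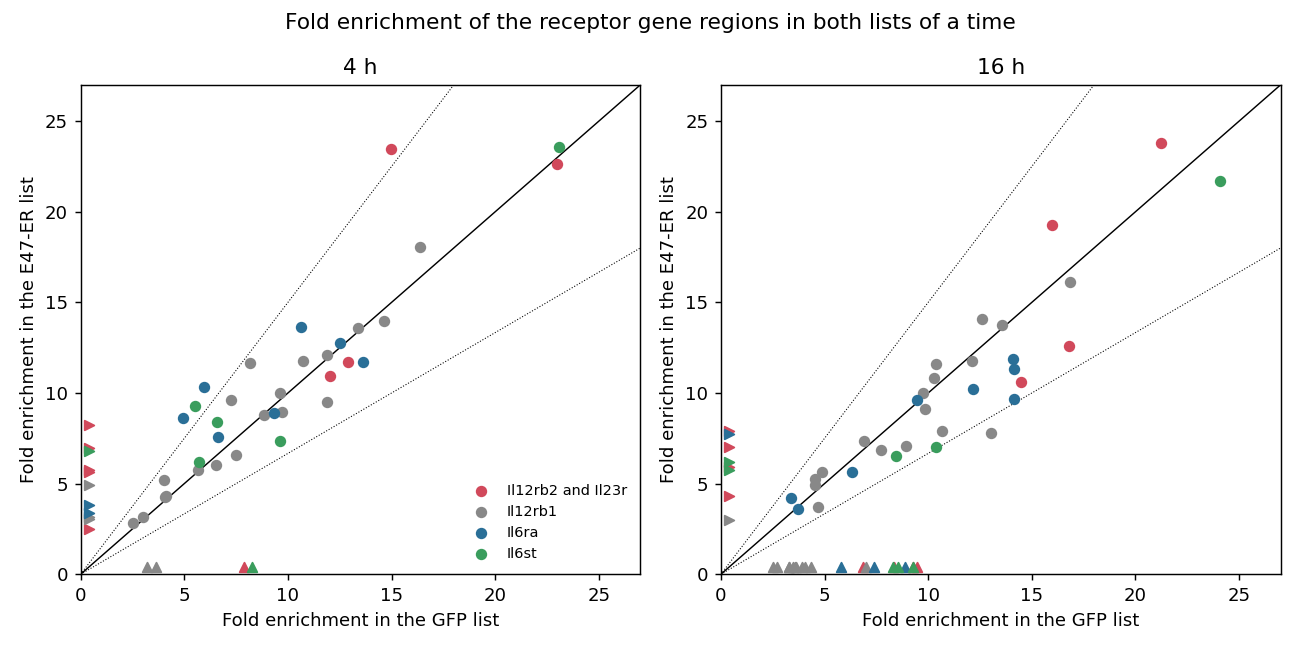
Fold enrichment in the E47-ER list (vertical axis) against that in the GFP list (horizontal axis) at 4 h and 16 h, 1 point per region, coloured by locus; triangles on an axis are regions called in 1 of the 2 lists, the solid line marks equal folds and the dotted lines a ratio of 1.5 in either direction. Most points lie between the dotted lines, and the Il12rb2 and Il23r point at 23.5 against 14.99 lies above the upper line at 4 h and inside at 16 h.

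By time, GFP cells had a higher fold at 16 h than at 4 h in 22 of the 30 regions, with a median ratio of 1.07 (1.08 over all regions), and E47-ER cells in 11 of 30, with a median of 0.960 (0.938 over all). Each median lay near that over all regions.

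Counts of calls at each time were also read against all regions. At 4 h, 11 of the 64 regions (17.2%, 95% exact Clopper-Pearson interval 8.90 to 28.7) were called with E47-ER and not GFP, against 19.5% of all, and 4 (6.25%, 1.73 to 15.2) with GFP and not E47-ER, against 8.37%. At 16 h, the counts were 8 (12.5%, 5.55 to 23.2) and 21 (32.8%, 21.6 to 45.7), against 7.48% and 26.4%. In both classes at both times, 4 regions (6.25%, 1.73 to 15.2) and 3 regions (4.69%, 0.977 to 13.1) stood against 3.43% and 4.56%, and 30 (46.9%, 34.3 to 59.8) were in all lists, against 48.8%. Each interval holds the share of all regions, and the intervals cover counting error only. As reported, the calls over all 5 genes were thus near the background. Some other ways of counting gave higher E47-ER shares, each still within the interval of the share reported. With single summits in place of regions, 11 of 129 (8.53%) were called with E47-ER and not GFP at both times, against 3.34% of all, and 17.8% at 16 h, against 9.01%. Among the 27 regions whose nearest gene was 1 of the 5, the counts were 3 (11.1%) and 6 (22.2%), against 3.43% and 7.48%. Within 10 kb of the genes they were 3 (11.1%) and 5 (18.5%) of 27. The nearest-gene setting also gave 37.0% with GFP and not E47-ER at 16 h, against 26.4%. At 4 h it gave 14.8% with E47-ER and not GFP, against 19.5%. This 4 h share was 28.6% (14 of 49) at a score of 830, against 18.9%, and 26.4% with single summits, against 20.4%. It was lower, 10.3%, among regions above the median of their list, against 16.4%, and 16.7% inside gene bodies, against 19.5%. Inside gene bodies, the E47-ER share was 11.1% at both times, against 3.43%, and 22.2% at 16 h, against 7.48%. Within 100 kb, the E47-ER share at both times was 4.55%, against 3.43%. Summits of 1 region are not independent. Of the regions as reported, 3 of the 4 regions of both E47-ER lists were in the joint Il12rb2 and Il23r window. Of the 21 called with GFP and not E47-ER at 16 h, 11 lay in the Il12rb1 window and 12 were called in GFP at 16 h alone. These 12 were 18.8% of the 64 regions, against 10.6% of all regions with this pattern.

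**Figure D4:**
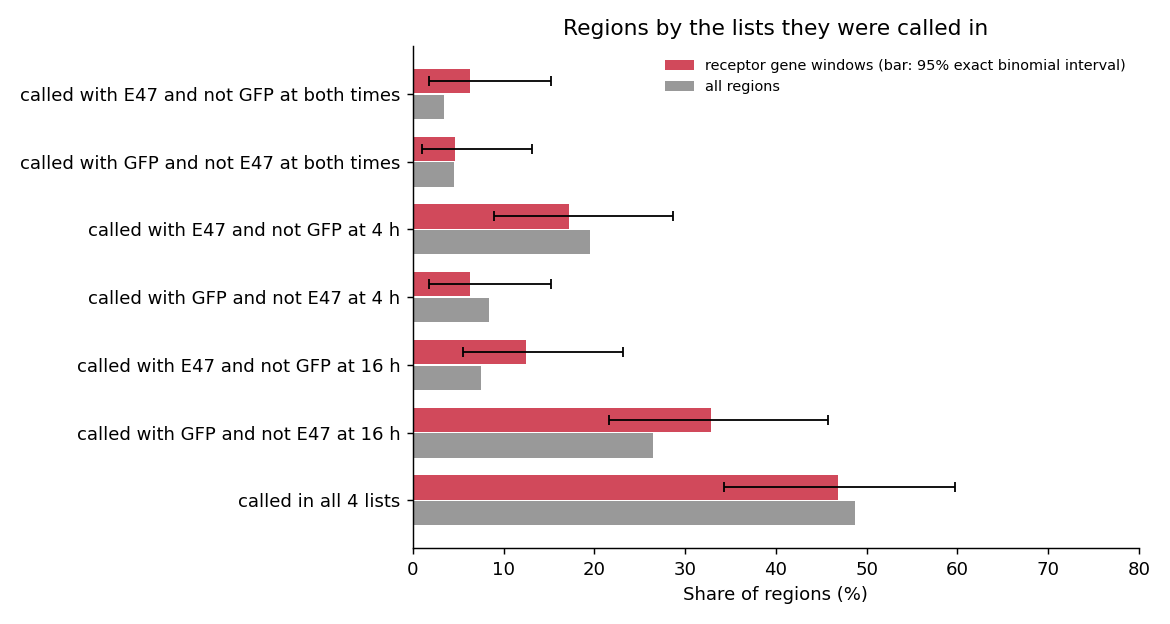
Share of regions in percent (horizontal axis) called in each combination of lists, for the 64 receptor gene regions (red, with 95% exact binomial intervals) and all 60835 regions (grey). Every interval of the receptor genes includes the grey share.

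Other genes of these pathways were counted in the same 50 kb windows from fixed lists. The 12 ligand genes had 111 regions, 4 called with E47-ER and not GFP at both times and 5 the other way. Lif, a cytokine that signals through gp130, had 2 of each. The 6 partner receptor genes of the gp130 family had 40 regions, 2 and 6 of these kinds. Cntfr, the receptor of ciliary neurotrophic factor, had 3 GFP regions and no E47-ER region, and Il27ra, which encodes the IL-27-binding chain, had 1 of each. The Il31ra window includes the 2 regions near Il6st already given. The E47-ER shares, 3.60% for ligands and 5% for partner receptors, compare with 3.43% of all regions, and the GFP shares, 4.50% and 15%, with 4.56%. None of these was tested.

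For genes that act after the receptors, the counts are again read against 3.43% and 4.56% of all regions. The 6 kinase and STAT genes had 5 (5.81%) against 2 (2.33%) among 86 regions, small counts near those shares, with 2 against 1 at Jak1 and at Stat4, the main STAT of IL-12. The 5 feedback inhibitor genes had 7 (12.3%) against 2 (3.51%) among 57, with 3 against 2 at Socs1 and 2 against 0 at Socs3, which binds gp130 and limits IL-6 signalling. The 9 genes that these cytokines induce in lymphocytes had 6 (7.14%) against 3 (3.57%) among 84, with 3 against 0 at Il17f and 2 against 0 at Il17a, neighbouring genes for type 17 cytokines that share regions and belong to the ILC3 markers too. These lists were not tested. Tbx21, which encodes T-bet, had none of either kind, and Ifng and Il22, also neighbours, had 1 of each.

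Receptors that ILC2s use at their activation gave a comparison. The 8 receptor genes of the common gamma chain family, among them Il2ra and Il7r, had 93 regions, 3 called with E47-ER and not GFP at both times, 5 the other way and 55 (59.1%) in all lists. The 5 alarmin receptor genes, among them Il1rl1 and Il17rb, had 52 regions, 1 and 2 of these kinds and 32 (61.5%) in all lists. The 5 receptor genes of IL-23, IL-12 and IL-6 had 4, 3 and 30 (46.9%) among 64. Over all regions, the shares were 3.43%, 4.56% and 48.8%. For calls in all lists, the IL-23, IL-12 and IL-6 receptor genes were thus near all regions, and both comparison sets were above them. Shares above all regions were not particular to receptors of ILC2s. They were 65.5% at B cell, 65.5% at stroma and epithelium and 58.3% at myeloid marker genes, and 49.1% at ILC2 marker genes. None of these differences could be tested with 1 list per group.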

How the data were processed

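ATAC-seq was carried out on 8 samples in 4 groups of 2, grouped by their titles. The submitters' processing notes name cutadapt, Bowtie2, MACS2 and DiffBind and build mm10; what each tool did, and its version, is not given in the sources used here. The labels name the tracks behind the lists as trimmed, pooled, shifted for Tn5, and cleared of mitochondrial reads and duplicates. The authors deposited 1 peak list per group, which the labels name as conservative and filtered by irreproducible discovery rate (IDR). Each deposited line holds a score (540 to 1000), a fold enrichment (a ratio) and a −log10 p, whose lowest value was 2.00. Depth is unknown.

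Overlapping lines within a list were merged, and regions of different lists were linked at 1 bp of overlap or more. A region belonged to the receptor genes when any of its summits did; at the edge of the Il6ra window, 1 region counted although its strongest summit lay outside. Gene bodies and promoters came from RefSeq tables of GRCm38.p6 (21887 protein-coding genes, 17492 starts). The rule for description took every region called by 1 vector at both times, regions within 1 kb of gene ends and the strongest regions. It also took regions past a fold ratio of 1.5 in 1 direction at both times, which none reached. Other regions, those past this ratio at a single time among them, were named after their values were seen. The genes, lists and rules were chosen with earlier results of these data known. Some genes are not reported here and were left out of the gene lists. The code was tested on simulated data. Software was matplotlib 3.10.9, scipy 1.17.1, numpy 2.4.6 and pandas 2.3.3 under Python 3.11.15.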

Additional observations from a re-analysis of the deposited data

Results flagged for a closer look

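The balance of regions called by 1 vector had opposite signs at the 2 times. At the 5 genes, the number of E47-ER regions minus that of GFP regions was 7 at 4 h and -13 at 16 h. Over all regions the balance turned the same way, with 19.5% called with E47-ER and not GFP against 8.37% the other way at 4 h, and 7.48% against 26.4% at 16 h, so the turn is not particular to these genes. With 1 list per group, it was not tested. The E47-ER list was the longer at 4 h and the GFP list at 16 h. With lists of equal length, 56 regions remained at these genes. The counts were 6 (10.7%) against 5 (8.93%) at 4 h and 11 (19.6%) against 11 (19.6%) at 16 h. Over all regions the shares in this setting were 12.2% against 12.1% at 4 h and 14.5% against 15.1% at 16 h.

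The same turn was seen in 3 single regions, called in E47-ER at 4 h and GFP at 16 h and in no other list, as 4.57% of all regions were. They lay inside Il12rb2 (chr6:67302566-67302753, folds of 5.78 and 9.44), in Ifi30 (chr8:70766157-70766309, 4.94 and 4.35) and in Mast3 (chr8:70791289-70791418, 3.05 and 3.28). Whether these turns exceed replicate error was not tested.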

How the results depend on the processing

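The 7 shares of calls were recomputed under 10 alternatives set beforehand, which gave 70 values, and 65 stayed within the 95% interval of the share reported. The exceptions were these. At equal list length, regions called with GFP and not E47-ER at 16 h were 19.6% (11 of 56) in place of 32.8%. The share of all regions fell too, to 15.1% in place of 26.4%. Among regions above the median of their list, those called with GFP and not E47-ER were 0% at both times and 0% at 4 h. For all regions these shares were 4.01% and 4.87%. Those in all lists were 62.1% (18 of 29), against 60.8% of all regions in this setting. Inside gene bodies only, 33.3% (6 of 18) were in all lists, against 48.8% of all regions.

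Called with E47-ER and not GFP at both times were 4 regions as reported, 4 at equal length, 3 at a score of 830 and 2 above the median, but these were not all the same regions: the Il6ra region 42.0 kb downstream of the start entered at that score and above the median. Of the 7 regions called by 1 vector at both times, 7 were kept with an overlap of 50%, 3 at equal length, 2 at a score of 830 and 0 above the median. The region 41492 bp upstream of the Il23r start was kept at equal length and at that score. It was dropped when the nearest gene had to be 1 of the receptor genes. No paired analysis was possible because each group has 1 list for its 2 samples, so no replicate was left out either.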

Other observations

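The number of summits within a region is the number of peak lines merged into it, and so comes from the same calls. It was compared over the 30 regions in all lists. They held 93 and 88 summit lines in E47-ER cells at 4 h and 16 h, and 80 and 86 in GFP cells. Per region this was 3.10, 2.93, 2.67 and 2.87, against 3.37, 3.19, 3.15 and 3.32 over all regions in all lists. At the Il6ra start the 4 lists held 4, 4, 2 and 2 summits in the order E47-ER 4 h, E47-ER 16 h, GFP 4 h and GFP 16 h, although its fold was higher in GFP cells. At the region between Il12rb2 and Il23r they held 4, 2, 2 and 2, and at the Il6st start 6, 6, 5 and 5. The Serbp1 start held 8 in every list. Whether summit number differs beyond replicate error was not tested.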
